A study of Mus musculus with 4 samples.

Results

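A set of 10 genes for angiogenic and paracrine growth factors was followed in cardiac mesenchymal cells of the mouse: Vegfa, Vegfb, Vegfc, Angpt1, Hgf, Gas6, Adm, Fgf2, Fgf7 and Fgf10. The 10 genes were chosen by symbol among the 28001 genes of each single-cell matrix, and all 10 were found in all 4 matrices. The study concerns the diversity of progenitors in the cardiac mesenchyme. The cells came from heart digests and carried 1 of 3 fluorescent reporters. Hic1 CreERT2 tdTomato+ cells (C57BL/6) came from 3 hearts pooled 7 days after ligation of the left anterior descending (LAD) coronary artery, and from 3 pooled undamaged hearts. PDGFRa H2BGFP+ cells (B6.129S4-Pdgfratm11(EGFP)Sor/J on C57BL/6) came from 2 ligated and 2 undamaged hearts, and Hic1 citrine+ cells (C57BL/6) from 3 undamaged hearts. These last 7 hearts carried antibody hashtags against MHC class I, so that cells could be assigned to hearts, but the labels do not say which PDGFRa hashtags were ligated. The reporters limit the populations: tdTomato marks cells in which the Hic1-driven CreERT2 recombinase acted and their descendants, whereas citrine and H2BGFP mark cells by Hic1 and Pdgfra activity. Each library is 1 sample.

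Vascular endothelial growth factors act on receptors of endothelial cells: Vegfa through Kdr, Vegfb through Flt1 and Vegfc mainly through Flt4 in lymphatic vessels. Angpt1 binds the endothelial receptor Tek and is known for stabilising vessels, Hgf binds Met, Gas6 is a vitamin K-dependent ligand of Axl, Tyro3 and Mertk, and the peptide adrenomedullin, from Adm, binds Calcrl together with Ramp2 or Ramp3. Fgf2 binds heparan sulphate and several fibroblast growth factor receptors, whereas Fgf7 and Fgf10 are mesenchymal ligands of the Fgfr2 form found on epithelia. Fibroblasts and mural cells, the pericytes and smooth muscle cells that wrap vessels, are known sources of these factors in the heart, and Vegfa and Adm are textbook targets of hypoxia-inducible factors.

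In GRCm38 (GENCODE vM21 annotation), Vegfa lies at chr17:46016993-46032369 on the minus strand (ENSMUSG00000023951), Adm at chr7:110627661-110629820 on the plus strand (ENSMUSG00000030790) and Hgf at chr5:16553495-16620152 on the plus strand (ENSMUSG00000028864). The other members lie at chr19:6982473-6987651 (Vegfb), chr8:54077606-54187096 (Vegfc), chr15:42424723-42676977 (Angpt1), chr8:13465374-13494490 (Gas6), chr3:37348346-37410108 (Fgf2), chr2:126034658-126091185 (Fgf7) and chr13:118669791-118792115 (Fgf10). The sources used here do not say that counting used strand. Exonic bases are shared with genes of the opposite strand at Angpt1 (737 bases with Gm17473), Fgf2 (640 bases with Nudt6), Fgf10 (123 bases with Gm16263) and Gas6 (34 bases with Tmem255b), so the counts of these 4 are uncertain to that extent if strand was not used. On the same strand, Hgf shares 484 exonic bases with Gm43489 and Fgf2 shares 255 with Gm43439. The count matrices hold neither of these genes, so the counts of Hgf and Fgf2 are uncertain there with or without strand. The 250 bases before the RefSeq start (GRCm38.p6) are shown, 5′ to 3′ on the gene's own strand, for Adm and Vegfa, which were lower in ligated hearts, and for Hgf, which was higher in pericyte-like cells. Capitals mark the letters ACGTG or GCGTG, the core at which hypoxia-inducible factors bind, read on both strands (CACGT or CACGC on the other).
Adm, chr7:110627407-110627656, plus strand: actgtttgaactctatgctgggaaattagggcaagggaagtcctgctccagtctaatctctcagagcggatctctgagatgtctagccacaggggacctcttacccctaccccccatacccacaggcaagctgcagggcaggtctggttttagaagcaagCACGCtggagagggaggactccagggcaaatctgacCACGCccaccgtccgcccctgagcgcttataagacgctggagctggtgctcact
Vegfa, chr17:46032378-46032627, minus strand: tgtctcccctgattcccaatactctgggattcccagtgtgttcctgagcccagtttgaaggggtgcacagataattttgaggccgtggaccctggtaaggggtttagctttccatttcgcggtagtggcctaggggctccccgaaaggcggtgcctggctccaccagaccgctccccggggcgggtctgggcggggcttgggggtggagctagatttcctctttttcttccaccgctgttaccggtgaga
Hgf, chr5:16553245-16553494, plus strand: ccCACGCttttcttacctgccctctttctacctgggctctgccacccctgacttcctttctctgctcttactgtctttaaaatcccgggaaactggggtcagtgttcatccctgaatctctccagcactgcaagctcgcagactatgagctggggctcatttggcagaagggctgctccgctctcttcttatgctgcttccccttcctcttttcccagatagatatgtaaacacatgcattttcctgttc
The Adm window held 2 GCGTG-type matches, the Hgf window shown 1, and the Vegfa window shown neither motif. RefSeq has a further window for both: that of Vegfa (chr17:46025164-46025413, minus strand) held 1 ACGTG and 1 GCGTG, and that of Hgf (chr5:16553651-16553900, plus strand) neither. Both further windows lie inside the annotated span of their gene. Of the 10 members 9 had a RefSeq window, and 6 of them held either motif in at least 1 of their 11 windows. Vegfa is among the 6 only through its further window. Over 32851 windows of this length, 16.6% held ACGTG, 28.2% held GCGTG and 38.6% held either. These shares are per window, whereas the count of 6 is per member. A match in so short a motif describes letters only.

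Depth differed mainly between the tdTomato pair and the hashed pair, over a range of 9885698 to 122716283 UMIs (unique molecular identifiers, 1 per captured transcript end) per library. After removal of barcodes under 500 genes, under 1000 UMIs or over 10% mitochondrial UMIs, cells numbered 4263 in the ligated and 2786 in the undamaged tdTomato library, 12567 in the PDGFRa and 10838 in the citrine library, with median depths of 3453 to 8038.5 UMIs. Clusters were named from marker genes, after clustering without the 10 members and the genes of their pathways. Fibroblast-like cells were 73.5% and 87.2% of the ligated and undamaged tdTomato cells, 100% of the PDGFRa cells and 97.9% of the citrine cells. Their fibroblast markers were all detected (9 of 9 in each library), whereas macrophage markers summed to at most 8.41 CPM (UMIs per 1000000 UMIs of the class), lymphocyte markers to at most 0.551 CPM and epicardial markers to at most 5.74 CPM. Postn, the injury-response matrix gene periostin, stood at 1154 CPM in ligated and 197 CPM in undamaged tdTomato fibroblast-like cells. The tdTomato libraries shared 8 cell barcodes and the citrine and PDGFRa libraries 35. Cells with 1 clear hashtag were 7285 (58.0%) of the PDGFRa and 5366 (49.5%) of the citrine cells. Libraries of different pairs shared at most 2 barcodes, although the labels name the same kit for all. Because of this and the difference in depth, levels are compared within a pair only, except in the correlations over clusters of all 4 libraries.

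After ligation, adrenomedullin, Vegfa and Fgf2 were the members that stood lower in tdTomato fibroblast-like cells, and none stood higher by 2-fold. Adm had 1036 UMIs, or 71.4 CPM, in the ligated library and 1895 UMIs, or 209 CPM, in the undamaged library, which is 2.92-fold lower (95% interval 2.71 to 3.16). Vegfa had 59 UMIs (4.07 CPM) in the ligated and 85 UMIs (9.36 CPM) in the undamaged library, a ratio of 0.437 (0.306 to 0.613). Fgf2 had 274 UMIs (18.9 CPM) in the ligated and 346 UMIs (38.1 CPM) in the undamaged library, 2.02-fold lower, and so at the edge of the 2-fold mark (ratio 0.496, 0.421 to 0.583). Without the activated-like clusters 2 members were past the mark, and the lowest and highest log2 ratio of Fgf2 over 10 alternatives were −1.02 and −0.89. Each group is 1 pooled library, so there is no test, and every interval here and below covers counting error only (exact conditional binomial for 2 Poisson counts).

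The other 7 members stayed within 2-fold. Angpt1, at 26.9 CPM in the ligated and 38.9 CPM in the undamaged library, had a ratio of 0.693 (0.599 to 0.803). Ratios above 1 with intervals that leave out 1 were found for 3 members: Vegfb, at 10.5 CPM in ligated and 5.39 CPM in undamaged hearts (1.93, 1.41 to 2.75), Hgf, at 5.44 CPM in ligated and 2.97 CPM in undamaged hearts (1.79, 1.17 to 2.95), and Gas6, at 139 CPM in ligated and 115 CPM in undamaged hearts (1.21, 1.12 to 1.30). Vegfc (18.2 CPM ligated, 20.6 CPM undamaged), Fgf7 (17.5 and 17.9 CPM) and Fgf10 (5.65 and 5.61 CPM) had intervals that include 1. Among all 12323 genes with at least 20 UMIs, 4.05% stood 2-fold or more lower and 2.94% higher, set against 3 and 0 of the 10 members. The median log2 ratio was −0.11 over the members and −0.06 over all genes. Markers of pericytes (10 of 10 detected) summed to 507 CPM in ligated and 355 CPM in undamaged fibroblast-like cells, and endothelial markers to 126 and 111 CPM (6 of 8 and 7 of 8 detected, with Cldn5 at 0 in both). Smooth muscle markers summed to 250 CPM in ligated and 110 CPM in undamaged fibroblast-like cells (8 of 8 and 7 of 8 detected, with Cnn1 at 0 in the undamaged library). The part of these other cell types' RNA in the ratios was not tested.

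**Figure D1:**
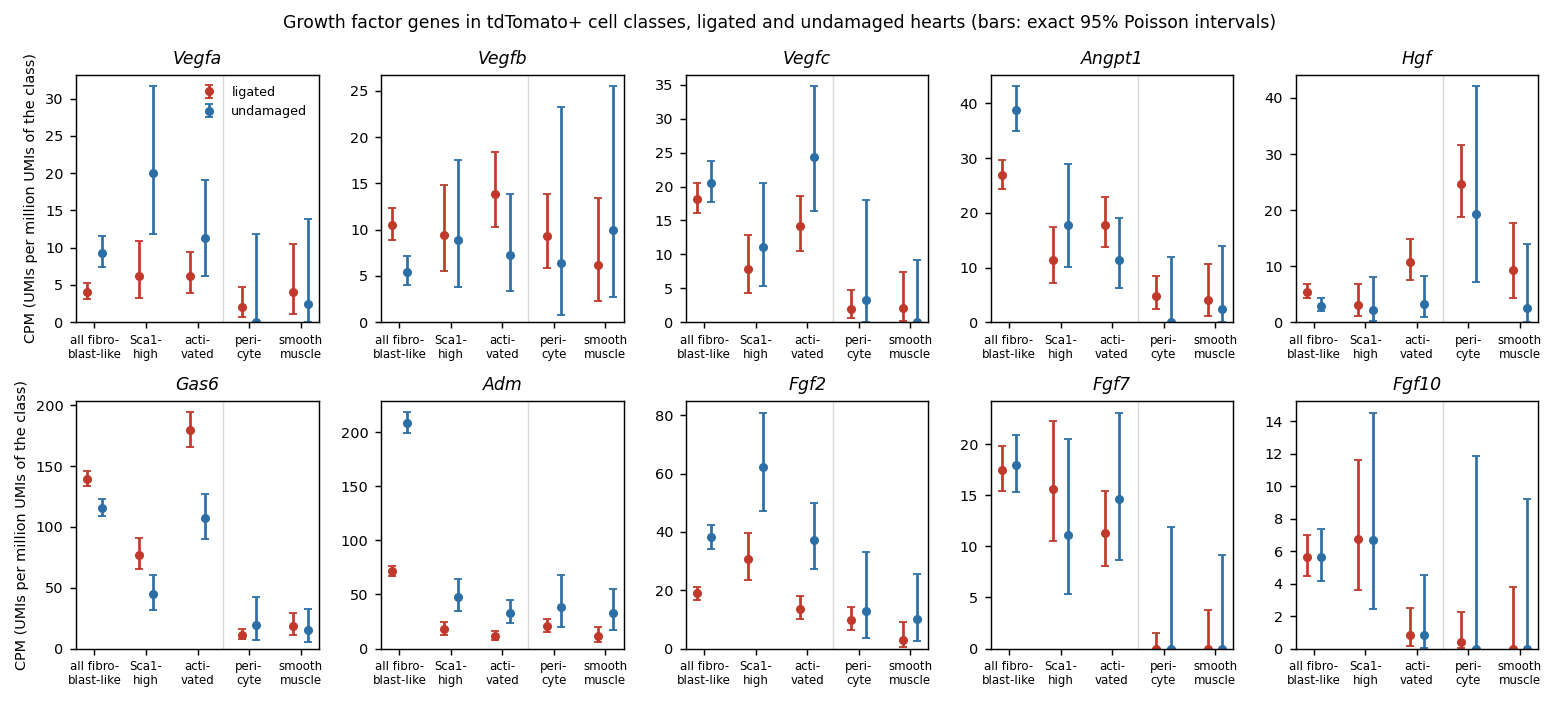
CPM of the 10 growth factor genes (y axis, linear, from 0) in 5 cell classes of the tdTomato libraries (x axis), with ligated hearts in red left of undamaged hearts in blue and exact 95% Poisson intervals as bars. Adm stands at 71.4 CPM in ligated and 209 CPM in undamaged fibroblast-like cells, and Hgf is the member with its highest points in the pericyte-like class (24.6 and 19.3 CPM). Sca1-high and activated cells are parts of the fibroblast-like class.

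Adm and Fgf2 also stood lower by 2-fold within both fibroblast subsets, and Vegfa within 1 of them. Sca1-high-like clusters, named from Ly6a (Sca1), Pi16, Dpp4 and related markers, held 422 ligated and 204 undamaged cells. In them Vegfa had a ratio of 0.32 (0.137 to 0.685), Adm of 0.373 (0.229 to 0.594) and Fgf2 of 0.493 (0.336 to 0.724). These were 3 of the 8 members that had enough UMIs, where 3.05% of all genes were 2-fold or more lower. Gas6, at 1.7 (1.21 to 2.52), lay on the other side of 1. Activated-like clusters, named from Postn, Cthrc1 and related markers, held 417 ligated and 290 undamaged cells, with median depths of 7743 and 4126.5 UMIs. Adm was 2.87-fold lower there (ratio 0.349, 0.221 to 0.552), Fgf2 had a ratio of 0.364 (0.238 to 0.558), and Hgf stood 2.72-fold higher with a wide interval (1.19 to 12.8). Vegfa had 22 UMIs in ligated and 14 UMIs in undamaged activated-like cells, a ratio of 0.535 with an interval that includes 1 (0.268 to 1.16). Adm, Fgf2 and Hgf were 3 of 9 members past 2-fold, against 14.9% of genes past 2-fold in either direction. The activated-like cluster of the ligated library was led by Mfap4, Ptn, Col1a1 and Cthrc1 and that of the undamaged library by Mfap4, Gsn, Cytl1 and Cd9, so clusters with different leading genes hold this class in the 2 libraries. The undamaged cluster also passed the naming rule of a further list (Wif1, Cytl1, Comp, Prg4 and Chad), and the ligated cluster did not. At Leiden resolution 0.5 the undamaged activated-like cluster also carried the Sca1-high name.

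**Figure D2:**
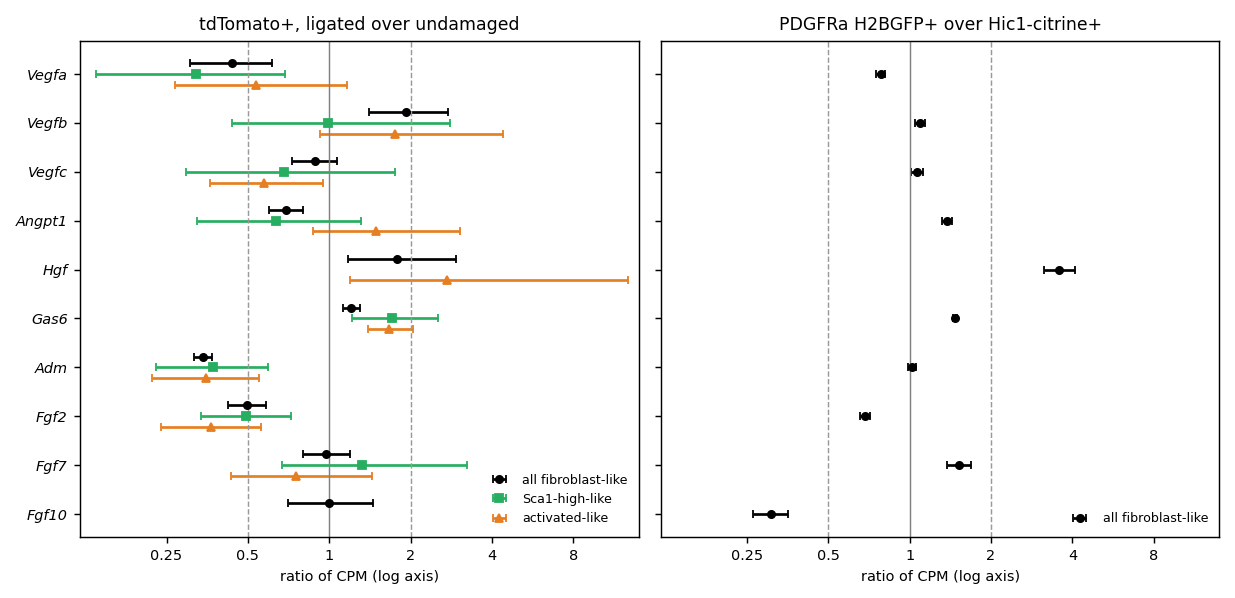
Ratios of CPM (x axis, log scale) for each growth factor gene (y axis) with 95% intervals for counting error. The left panel sets ligated over undamaged tdTomato hearts in all fibroblast-like, Sca1-high-like and activated-like cells. The right panel sets PDGFRa over citrine fibroblast-like cells. Dashed lines mark 2-fold. Adm lies left of 0.5 in all 3 classes of the left panel (0.342, 0.373 and 0.349), and Hgf and Fgf10 lie outside the dashed lines in the right panel.

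In ligated fibroblast-like cells 4.05% of all genes stood 2-fold or more lower and 2.94% higher, the shares for the counts that follow. Among receptors of these ligands, 1 of 12 genes measured stood 2-fold or more lower and none higher. It was Kdr, the Vegfa receptor, with 8 UMIs in the ligated and 17 UMIs in the undamaged library (0.313, 0.11 to 0.72), a level near the detection limit. Of 20 other angiogenic and paracrine ligands, 3 stood higher and 3 lower. Nrg1, an ErbB ligand of the heart, had 32 UMIs in ligated and 3 UMIs in undamaged cells (5.16-fold, 2.09 to 34.1). Ptn (pleiotrophin), at 653 CPM in ligated and 149 CPM in undamaged cells, was 4.38-fold higher, and the epidermal growth factor family ligand Ereg 3.48-fold higher. Angpt4, an angiopoietin of the Tek receptor like Angpt1, was 2.66-fold lower. Of 15 extracellular partners none passed 2-fold, and of 18 hypoxia-induced genes 1 did: Ddit4, an inhibitor of mTORC1 signalling induced by stress, was 4.18-fold lower, at 29.97 CPM in ligated and 126 CPM in undamaged cells. The median log2 ratio of the 18 hypoxia-induced genes was −0.14 and that of all genes −0.06.

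Among the mural classes, Hgf was the member that stood out: it was higher in pericyte-like than in fibroblast-like cells, and most of the others were lower. Hgf had 61 UMIs (24.6 CPM) in pericyte-like and 79 UMIs (5.44 CPM) in fibroblast-like cells of the ligated library, a ratio of 4.44 (3.18 to 6.39), and 6 UMIs (19.3 CPM) in pericyte-like and 27 UMIs (2.97 CPM) in fibroblast-like cells of the undamaged library (6.14, 2.20 to 16.1). It was the 1 member past 2-fold higher in either library, where 13.0% of genes in the ligated and 17.6% in the undamaged library were higher. Genes entered these counts with at least 20 UMIs over both classes together, and so could enter by their fibroblast-like UMIs alone. In the ligated library 6 members were 2-fold or more lower in the 831 pericyte-like cells, against 12.6% of genes. Gas6 had 11.3 CPM in pericyte-like and 139 CPM in fibroblast-like cells, 12.3-fold lower. Fgf7 had 0 UMIs in pericyte-like cells, which puts it at least 14.5-fold lower when 3 UMIs are taken as the limit that 0 allows. Vegfc had 5 UMIs in pericyte-like cells (ratio 0.117), Angpt1 12 UMIs (0.183), Fgf10 1 UMI (0.0713, 0.00178 to 0.409) and Adm 52 UMIs (0.295, 0.218 to 0.388). Vegfb, the member with the nearest levels, had 9.27 CPM in pericyte-like and 10.5 CPM in fibroblast-like cells. In the undamaged library, with 182 pericyte-like cells of median depth 1597.5 UMIs, 8 members were past 2-fold lower, where 19.8% of genes were, but 4 of these 8 (Vegfa, Angpt1, Fgf7 and Fgf10) had 0 UMIs and Vegfc had 1. Fibroblast markers summed to 6953 CPM in ligated and 6467 CPM in undamaged pericyte-like cells (9 of 9 detected in both), and the part of free fibroblast RNA in the low levels there was not tested.

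Smooth-muscle-like cells, 299 in the ligated and 162 in the undamaged library, had lower levels of most of these factors than fibroblast-like cells. In the ligated library 7 of 10 members were 2-fold or more lower, where 20.9% of genes were. In the undamaged library 8 were, where 25.5% of genes were. Genes entered with at least 20 UMIs over both classes together, and so could enter by their fibroblast-like UMIs alone. Undamaged smooth-muscle-like cells held 401127 UMIs in all, against 9083991 in fibroblast-like cells, and ligated ones 970088 against 14512645. Low members can thus rest on few UMIs there, and these counts are no test. Gas6 had 18.6 CPM in smooth-muscle-like and 139 CPM in fibroblast-like cells of ligated hearts (0.134, 0.0787 to 0.211). Adm had 11.3 CPM in smooth-muscle-like and 71.4 CPM in fibroblast-like cells of ligated hearts (0.16, 0.079 to 0.285), and 32.4 CPM in smooth-muscle-like and 209 CPM in fibroblast-like cells of undamaged hearts (0.156, 0.0826 to 0.266). Hgf had 9 UMIs in ligated smooth-muscle-like cells, with an interval that includes 1 (ratio to fibroblast-like cells 1.69, 0.752 to 3.40), unlike its interval in pericyte-like cells; the difference between the mural classes was not tested.

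Between ligated and undamaged hearts, mural cells gave few values. Of 5 members with at least 20 UMIs in pericyte-like cells none was past 2-fold, where 13.1% of genes were, and each interval included 1 (Hgf 1.11, 0.552 to 3.6; Adm 0.51, 0.286 to 1.12). In smooth-muscle-like cells 1 of 2 members was past it, where 9.49% of genes were. That was Adm, with 11 UMIs in ligated and 13 UMIs in undamaged hearts (0.354, 0.142 to 0.846), on the same side as in fibroblast-like cells. Over all kept cells Hgf was 2.34-fold higher in the ligated library (1.64 to 3.59), with pericyte-like cells at 19.5% of ligated and 6.53% of undamaged cells.

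The citrine library gave a test across 3 hearts for pericyte-like cells, with few cells. UMIs were summed per heart and class, from 184 pericyte-like cells in heart 2 but 14 in heart 1 and 11 in heart 3, and tested with edgeR's quasi-likelihood test with heart as a block. Hgf had 19.1, 20.9 and 0 CPM in pericyte-like cells of hearts 1 to 3 and 2.95, 3.04 and 2.91 CPM in fibroblast-like cells. Hearts 1 and 2 lay above their fibroblast-like cells, and heart 3, with 11 cells, had no UMI. The fitted log2 change of Hgf was 2.24 ± 0.76 (SE, adjusted p 0.0332, higher in 2 of 3 hearts), and 1 member rose where 4.45% of all genes did. A further 3 members fell, where 6.17% of genes did: Vegfa by 1.53 (adjusted p 0.0192), Vegfc by 1.96 (0.0183) and Angpt1 by 1.71 (0.0252) on the log2 scale. None of these 4 calls stood in DESeq2, without heart 1 or without heart 2, and without heart 3 both Vegfa and Angpt1 lost theirs. Heart 3's 11 cells had 18 UMIs of the endothelial receptor Kdr (356 CPM), against 19.1 CPM in heart 1 and 13.96 CPM in heart 2, and endothelial markers summed to 2184 CPM over all citrine pericyte-like cells (8 of 8 detected). Fibroblast markers summed to 23333 CPM in these cells and pericyte markers to 17370 CPM. Their part in the test was not tested. Of the pathway genes, where the same 4.45% and 6.17% of all genes rose and fell, 3 of 11 receptors rose and 4 fell, 4 of 17 other ligands rose and 4 fell, 2 of 15 extracellular partners rose and 5 fell, and 1 of 18 hypoxia-induced genes rose and 2 fell.

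PDGFRa H2BGFP+ and Hic1 citrine+ fibroblast-like cells differed most in Hgf and Fgf10. Hgf, at 10.3 CPM in the PDGFRa and 2.88 CPM in the citrine library, stood 3.57-fold higher (3.14 to 4.10), and Fgf10, at 2.07 and 6.75 CPM, had a ratio of 0.308 (0.264 to 0.356). These 2 of 10 members were past 2-fold, where 15.2% of 15203 genes were. The reporter, the genotype and the presence of ligated hearts differ together between these libraries and cannot be told apart. The median log2 ratio of all genes was −0.15 and that of the members 0.11. Ratios above 1 were found for Fgf7 (1.52), Gas6 (1.47) and Angpt1 (1.37), and ratios below 1 for Vegfa (0.781) and Fgf2 (0.682). Vegfb (1.09), Vegfc (1.06) and Adm (1.02, 0.984 to 1.05) were the nearest to 1, and Adm changed side among cells with a single hashtag (log2 ratio −0.36). Without the activated-like clusters the log2 ratio of Hgf was 1.28, against 1.84 with them.

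The hearts of the PDGFRa library varied widely in the same genes. Hgf had 14.7, 13.8, 2.10 and 0.907 CPM in PDGFRa hearts 1 to 4, against 2.95, 3.04 and 2.91 CPM in the 3 citrine hearts. Hearts 1 and 2 lay above all citrine hearts and hearts 3 and 4 below them. Fgf10 had 0.974, 1.07, 3.94 and 5.44 CPM in the PDGFRa hearts, against 6.75, 6.55 and 4.57 CPM in the citrine hearts, and heart 4 lay within the citrine range. Adm had 49.7, 51.9, 156 and 95.9 CPM in the PDGFRa hearts, against 99.0, 65.2 and 86.4 CPM in the citrine hearts. PDGFRa heart 3 was the highest of the 7 hearts and PDGFRa hearts 1 and 2 the lowest.

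Between the reporters' hearts, 2 members did not overlap. Angpt1 had 47.5, 49.4, 60.9 and 59.1 CPM in PDGFRa hearts, against 38.9, 35.6 and 34.2 CPM in citrine hearts. Gas6 had 426, 442, 375 and 303 CPM in PDGFRa hearts, against 283, 261 and 250 CPM in citrine hearts. All 4 PDGFRa hearts were above all 3 citrine hearts in both genes. These 2 of 10 members compare with 31.5% of 14363 genes whose hearts did not overlap, so the members' count lies below that share. The PDGFRa and citrine ranges overlapped for Vegfa (43.0 to 56.1 and 46.9 to 59.4 CPM), Vegfb (41.8 to 46.5 and 37.4 to 45.3 CPM), Vegfc (24.4 to 35.7 and 29.5 to 33.6 CPM), Fgf2 (28.1 to 41.1 and 38.8 to 44.6 CPM) and Fgf7 (6.98 to 11.3 and 4.01 to 7.69 CPM).

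**Figure D3:**
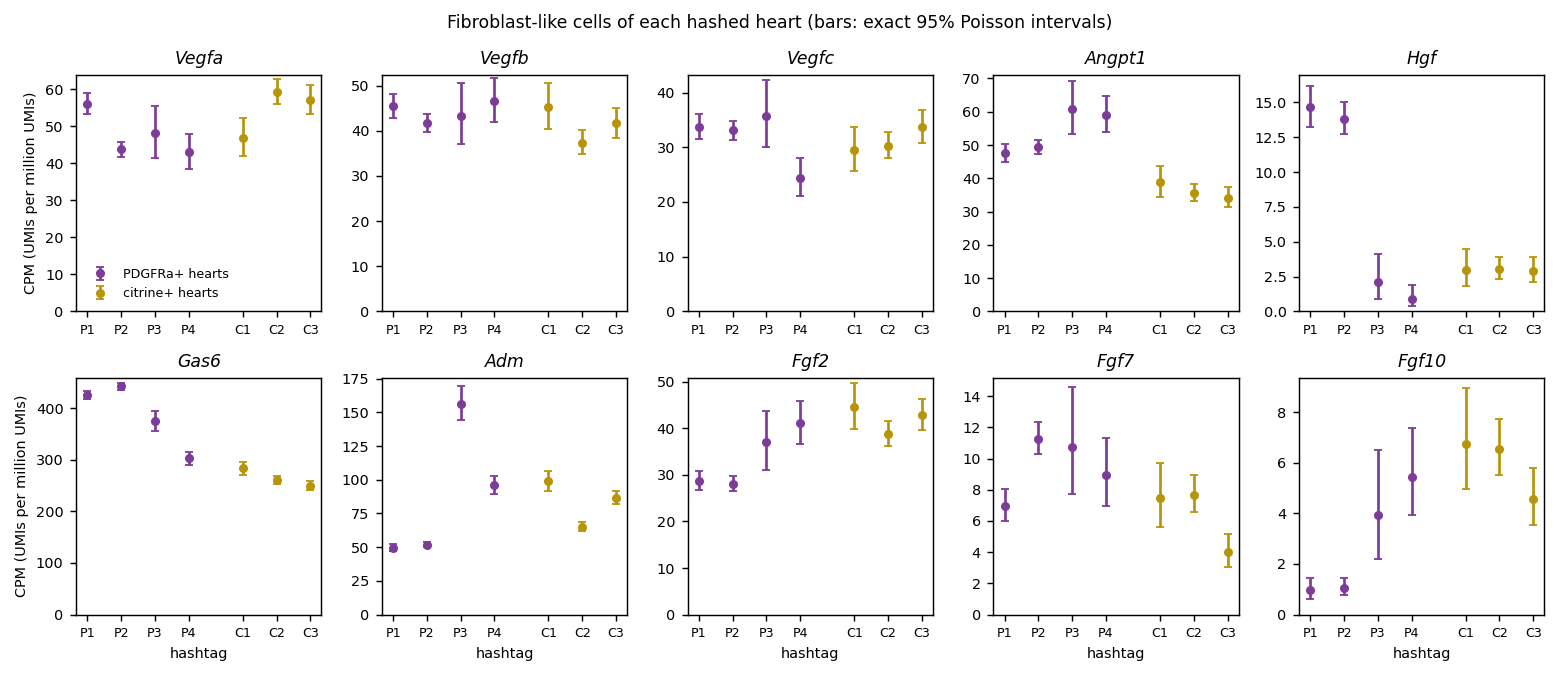
CPM of each growth factor gene (y axis, linear, from 0) in the fibroblast-like cells of each hashed heart (x axis: P1 to P4 are PDGFRa hearts, C1 to C3 citrine hearts), with exact 95% Poisson intervals. Angpt1 and Gas6 are higher in all 4 PDGFRa hearts than in all 3 citrine hearts, and Hgf spreads from 0.907 to 14.7 CPM among PDGFRa hearts.

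The order of the genes was shared by the PDGFRa and citrine hearts at its top, but not by the undamaged tdTomato library. Over fibroblast-like clusters of that library the median was 210 CPM for Adm and 100 CPM for Gas6. Over those of the ligated tdTomato library it was 72.0 CPM for Adm and 126 CPM for Gas6. A UMI is counted once per transcript end, so CPM of different genes needs no length correction. Differences in capture between genes were not tested. Conditions are mixed among the PDGFRa hearts, so medians and ranges are given for them. In PDGFRa hearts Gas6 came first (median 400.4 CPM, 303 to 442), then Adm (73.9 CPM, 49.7 to 156), Angpt1 (54.3 CPM, 47.5 to 60.9), Vegfa (45.9 CPM) and Vegfb (44.4 CPM). In citrine hearts Gas6 also came first (264 ± 17.1 CPM, SD, n = 3), then Adm (83.5 ± 17.1 CPM), Vegfa (54.5 ± 6.63 CPM), Fgf2 (42.1 ± 2.96 CPM), Vegfb (41.4 ± 3.94 CPM), Angpt1 (36.3 ± 2.43 CPM) and Vegfc (31.2 ± 2.19 CPM). Fgf7, Hgf and Fgf10 were the lowest 3 in both, with medians of 9.85, 7.96 and 2.5 CPM in PDGFRa hearts, against 6.39 ± 2.06, 2.97 ± 0.07 and 5.96 ± 1.21 CPM in citrine hearts. The ranges of Fgf2 and Vegfb, and of Vegfb and Angpt1, overlapped in citrine hearts, as did those of Adm, Angpt1, Vegfa and Vegfb with their neighbours in PDGFRa hearts. Gas6 lay above Adm, and Vegfc above Fgf7, with no overlap in either library.

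Within the fibroblast-like cells, the Sca1-high-like subset differed in these ligands: Fgf2 and Vegfa were higher, and Angpt1, Gas6 and Vegfc lower, than in the other fibroblast-like cells of the same hearts, with both reporters. Parts of this were shared with activated-like cells, where Angpt1 also fell with both reporters and Fgf2 rose with citrine. The other citrine cells include clusters of 984 and 911 cells that also have Pi16 and Ly6a among their leading genes. Clustering did not use these genes, but it used other genes of the same cells. Fgf2 had 65.9, 62.9, 65.4 and 76.2 CPM in Sca1-high-like cells of PDGFRa hearts 1 to 4, against 27.6, 26.3, 31.9 and 34.3 CPM in their other fibroblast-like cells. In citrine hearts it had 131, 100 and 103 CPM in Sca1-high-like cells, against 35.0, 32.8 and 31.5 CPM. Every heart had the higher value in Sca1-high-like cells, with no overlap, and the log2 changes were 1.12 ± 0.11 (SE, edgeR adjusted p 0.000115, 4 of 4 hearts) with the PDGFRa reporter and 1.67 ± 0.09 (2.6e-11, 3 of 3 hearts) with citrine.

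Vegfa followed Fgf2. It had 96.9, 69.3, 70.5 and 61.0 CPM in Sca1-high-like cells, against 54.8, 42.5, 44.0 and 39.6 CPM in other cells of PDGFRa hearts, and 107, 124 and 102 CPM against 40.3, 53.1 and 48.6 CPM in citrine hearts. All 7 hearts were higher in the subset. The log2 changes were 0.64 ± 0.10 (adjusted p 0.00223) and 1.16 ± 0.09 (2.69e-09). The PDGFRa call was lost with Leiden resolution 0.5 (log2 change 0.51) and without the heart block (0.62).

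Angpt1 and Gas6 were lower in the subset in all 7 hearts. Angpt1 had 31.1, 26.3, 32.7 and 43.3 CPM in Sca1-high-like cells of PDGFRa hearts, against 48.0, 50.6, 66.0 and 62.1 CPM, and 5.65, 10.2 and 8.23 CPM in those of citrine hearts, against 42.6, 38.1 and 39.1 CPM. The groups did not overlap with either reporter, and Angpt1 fell by 0.83 ± 0.14 (adjusted p 0.00247) and by 2.23 ± 0.18 (9.54e-09) on the log2 scale. Gas6 had 165 to 189 CPM in Sca1-high-like and 325 to 456 CPM in other cells of PDGFRa hearts, and 89.0 to 96.7 CPM in Sca1-high-like and 277 to 305 CPM in other cells of citrine hearts. It fell by 1.25 ± 0.13 (0.000191) and by 1.65 ± 0.08 (2.73e-12). Vegfc, the lymphatic growth factor, fell by 1.56 ± 0.19 with the PDGFRa reporter (0.000434) and by 1.35 ± 0.16 with citrine (2.31e-06).

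For the remaining members the 2 reporters gave calls of unequal firmness. Adm had 34.8, 53.0, 24.1 and 34.5 CPM in Sca1-high-like cells of PDGFRa hearts, against 50.2, 51.9, 180 and 108 CPM, and 0, 9.13 and 26.0 CPM in those of citrine hearts, against 110, 70.7 and 97.9 CPM. PDGFRa heart 2 had nearly equal values, and the other 6 hearts were lower in the subset. Adm fell by 2.58 ± 0.23 in citrine hearts (adjusted p 3.03e-08), and by 1.12 ± 0.33 in PDGFRa hearts (0.0484), a call kept in 4 of 11 alternatives and lost without heart 1 (−1.27), heart 3 (−0.73) or heart 4 (−0.92), among others. Hgf fell with PDGFRa (by 3.12 ± 0.91, 0.0448, kept in 7 of 10 alternatives, not without heart 1, without heart 2 or in DESeq2) and with citrine (by 1.68 ± 0.58, 0.0418, kept in 6 of 10, not without heart 2 or heart 3), on sums of few UMIs. In PDGFRa heart 3 Hgf stood at 6.88 CPM in Sca1-high-like and 1.24 CPM in other cells, against the direction of the fit. Fgf7 fell in citrine hearts (by 2.21 ± 0.43, 0.000571) and missed the threshold in PDGFRa hearts (−0.999 ± 0.305, 0.0546). Fgf10 fell in citrine hearts (by 1.00 ± 0.36, 0.0481), a call kept in 5 of 10 alternatives and lost without any 1 of the 3 hearts, and was 1.18 ± 0.53 in PDGFRa hearts (0.181). Vegfb did not pass in either (−0.08 ± 0.14, adjusted p 0.785, and 0.13 ± 0.15, 0.615).

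In all, 2 members rose and 5 fell with the PDGFRa reporter, where 6.35% of genes rose and 8.45% fell, and 2 rose and 7 fell with citrine, where 11.4% rose and 13.0% fell. The median log2 change of the 10 members was −0.92 and −1.50 in these tests, against 0.00147 and −0.0151 over all genes tested. The calls for Fgf2, Vegfc, Angpt1 and Gas6 held in all 11 alternatives with the PDGFRa reporter and in all 10 with citrine. Whether the changes differ between the reporters was not tested.

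**Figure D4:**
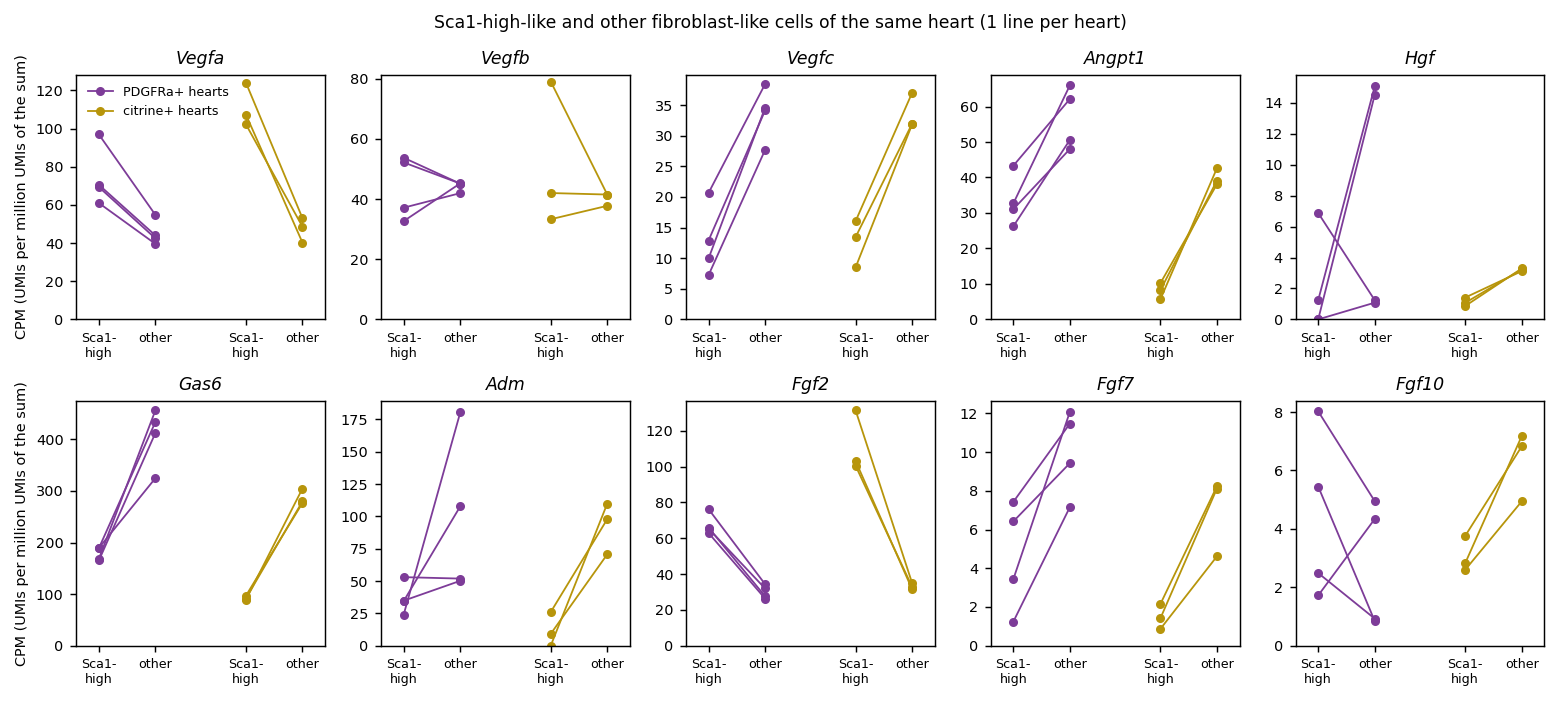
CPM of each growth factor gene (y axis, linear, from 0) in Sca1-high-like and other fibroblast-like cells of the same heart (x axis), 1 line per heart, with 4 PDGFRa hearts in purple and 3 citrine hearts in gold. Lines for Fgf2 and Vegfa fall to the right in all 7 hearts, and lines for Angpt1, Gas6 and Vegfc climb in all 7.

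Axl, Tek and Calcrl, receptors of 3 of these ligands, moved the other way in the same subset. Not all receptors did: in citrine hearts Mertk, a further Gas6 receptor, fell as Gas6 did. Axl, a Gas6 receptor, had 594, 639, 618 and 588 CPM in Sca1-high-like cells of PDGFRa hearts, against 138, 141, 204 and 227 CPM in other fibroblast-like cells (log2 change 1.75 ± 0.13, adjusted p 2.67e-05). Tek, the Angpt1 receptor, rose by 1.58 ± 0.16 (0.000121), and Calcrl, the adrenomedullin receptor, by 1.32 ± 0.13 (0.000118). In citrine hearts the same 3 receptors rose by 1.42 ± 0.06, 1.21 ± 0.08 and 0.93 ± 0.09 on the log2 scale. Against the 6.35% and 8.45% of all genes that rose and fell with PDGFRa and the 11.4% and 13.0% with citrine, 5 of 9 receptors rose and 1 fell with PDGFRa, and 5 of 10 rose and 4 fell with citrine, among them Mertk (by 2.97 ± 0.67, 0.00229), Nrp2 (by 1.42 ± 0.28) and Fgfr3 (by 3.57 ± 0.98). Of the other ligands, 4 of 18 rose and 11 fell with PDGFRa, and 4 of 15 rose and 9 fell with citrine. Ptn had 22.4 to 30.2 CPM in Sca1-high-like and 183 to 2470 CPM in other cells of PDGFRa hearts and fell by 5.14 ± 0.64, and it fell by 4.54 ± 0.25 in citrine hearts, while the related midkine gene Mdk fell by 4.66 ± 0.38 and 2.68 ± 0.24. Nrg1 fell with PDGFRa (0.00606), and Sema3c, which rose with citrine, is one of the markers that named the subset and is no finding. Among extracellular partners, 2 of 14 rose and 1 fell with PDGFRa and 3 of 14 rose and 5 fell with citrine: the heparan sulphate sulphatases Sulf1 (0.83 ± 0.11 and 0.78 ± 0.07) and Sulf2 (0.54 ± 0.14 and 0.84 ± 0.08) rose with both, Sdc1 fell with PDGFRa, and Ccbe1, which assists Vegfc processing, fell by 1.59 ± 0.20 with citrine. Of the hypoxia-induced genes, 2 of 17 rose and 1 fell with PDGFRa and 4 of 18 rose and 2 fell with citrine, with Ndrg1 up by 1.15 ± 0.11 and 1.41 ± 0.11, Vldlr up with PDGFRa, Hk2 up with citrine, Bhlhe40 down with PDGFRa and Ddit4 down with citrine.

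In activated-like fibroblast-like cells, Adm and Angpt1 fell with both reporters. The class held single-hashtag cells in all 3 citrine hearts (83 to 196 cells each), but reached 10 cells only in PDGFRa hearts 1 and 2 (417 and 720 cells). Leading genes differed, with Col1a1, Ptn, Timp1 and Cthrc1 in the PDGFRa cluster and Ctgf, Pmepa1, Fbln2 and Mfap5 in the citrine cluster. The citrine cluster, from undamaged hearts only, also passed the naming rule of the Wif1 list, and the PDGFRa cluster did not. The class may thus hold different cells in the libraries. The other fibroblast-like cells of the PDGFRa library, over all its hearts, include clusters of 1044, 819, 305 and 243 cells. These also have Col1a1 and Ptn among their leading genes. Adm had 7.75 and 5.67 CPM in activated-like cells of PDGFRa hearts, against 67.4 and 73.8 CPM in the other fibroblast-like cells, and fell by 3.39 ± 0.11 on the log2 scale (adjusted p 8.06e-16, 2 of 2 hearts). In citrine hearts it had 11.1, 30.9 and 19.0 CPM in activated-like cells, against 110, 68.8 and 93.4 CPM, and fell by 1.88 ± 0.19 (2.61e-07, 3 of 3 hearts). Angpt1 had 29.7 and 34.3 CPM in activated-like cells of PDGFRa hearts, against 55.0 and 56.6 CPM, and 16.1, 13.0 and 21.9 CPM in those of citrine hearts, against 41.9, 38.0 and 35.5 CPM. Both genes were lower in every heart, with no overlap, and Angpt1 fell by 0.72 ± 0.07 (3.77e-08) and by 1.18 ± 0.17 (2.85e-05). These calls held in all 7 alternatives with PDGFRa and all 10 with citrine.

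Other members differed between the tests. Fgf10 fell in PDGFRa (by 3.20 ± 0.66, adjusted p 0.000535) and in citrine hearts (by 1.39 ± 0.42, 0.0259), on few UMIs. The PDGFRa call was kept in 6 of 7 alternatives and the citrine call in 6 of 10, not without heart 1 or heart 2. Hgf had 16.7 and 23.3 CPM in activated-like cells of PDGFRa hearts, against 13.8 and 9.35 CPM in the others, and rose by 0.94 ± 0.16 (8.58e-05). In citrine hearts it had 2.47, 2.49 and 5.85 CPM against 3.01, 3.10 and 2.6 CPM, which overlap (0.32 ± 0.47, 0.731). Gas6 fell by 0.34 ± 0.06 with PDGFRa (4.69e-05) and rose by 0.38 ± 0.07 with citrine (0.000451). At Leiden resolution 0.5 the PDGFRa value of Gas6 was 0.79, past the threshold in the other direction, and the citrine value stayed above 0 in all 10 alternatives (0.23 to 0.60). At that resolution the PDGFRa activated-like cluster held 3422 cells, against 1473 in the main clustering. Vegfb (by 0.43 ± 0.07) and Fgf7 (by 0.92 ± 0.15) fell with PDGFRa, but at resolution 0.5 Vegfb was past the threshold the other way (0.25) and Fgf7 missed it (−0.21). Fgf2 rose with citrine (by 0.40 ± 0.12, 0.028), a call kept in 5 of 10 alternatives and not without heart 2 or heart 3. Vegfa did not pass with either reporter, and Vegfc did not at 0.18 ± 0.08 (0.0583) with PDGFRa and −0.35 ± 0.15 (0.104) with citrine. Both depended on the processing: Vegfa passed in 1 of 7 alternatives with PDGFRa and 4 of 10 with citrine, and Vegfc in 4 of 7 and 1 of 10.

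The share of all genes called sets a wide background here. With PDGFRa 1 member rose and 6 fell, where 23.0% of genes rose and 22.5% fell in a test of 2 hearts, and with citrine 2 rose and 3 fell, where 9.18% rose and 8.29% fell. Median depth was 17451 UMIs in activated-like PDGFRa cells and 7729 UMIs over all fibroblast-like PDGFRa cells, and its part in the calls was not tested.

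**Figure D5:**
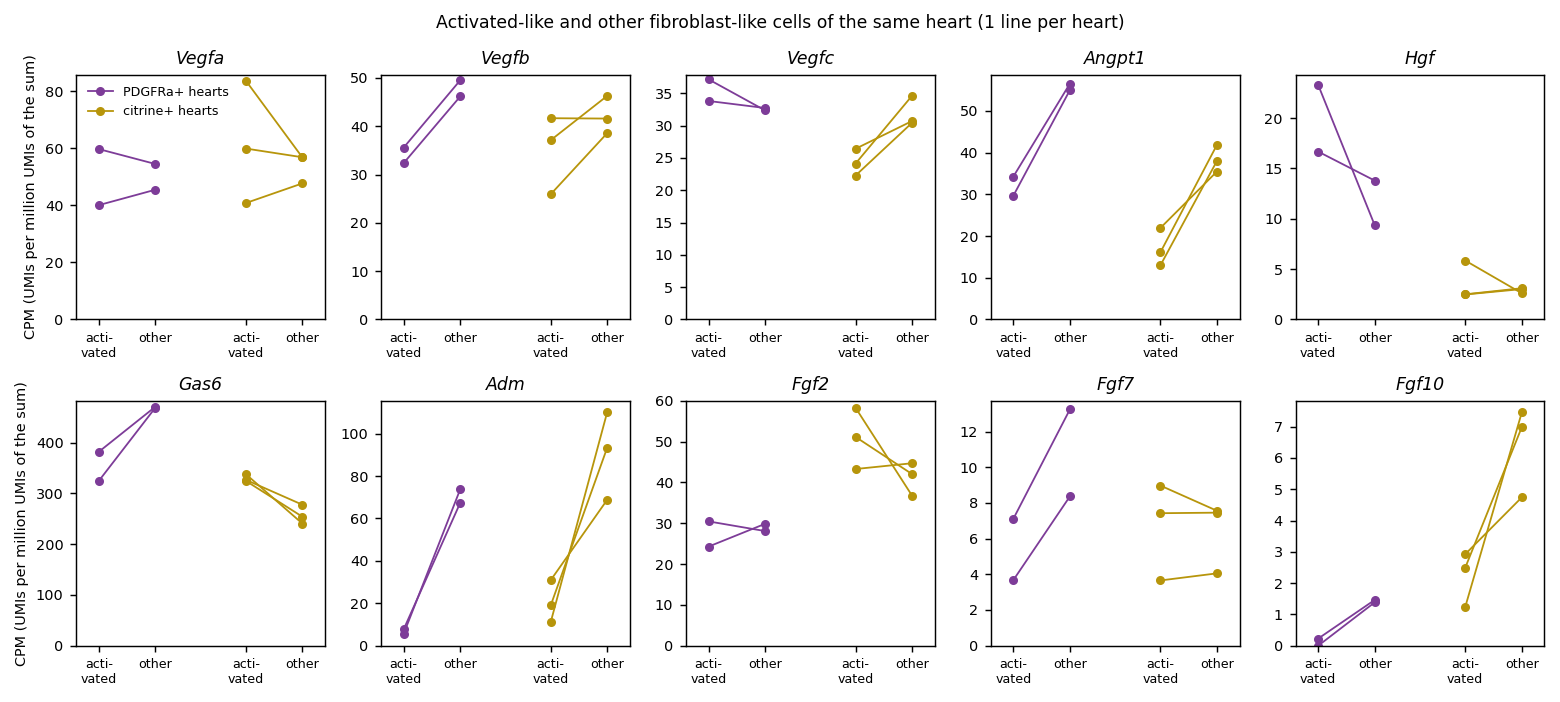
CPM of each growth factor gene (y axis, linear, from 0) in activated-like and other fibroblast-like cells of the same heart (x axis), 1 line per heart, with 2 PDGFRa hearts in purple and 3 citrine hearts in gold. Adm and Angpt1 are lower in activated-like cells of all 5 hearts, and Gas6 lines run in opposite directions in the 2 libraries at this cluster resolution.

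Genes of the same pathways in activated-like cells included receptors that fell with Adm and Angpt1. Calcrl fell by 1.30 ± 0.08 with PDGFRa and 0.70 ± 0.12 with citrine, its partner Ramp2 by 1.44 ± 0.06 and 0.55 ± 0.07, and Tek by 1.55 ± 0.10 and 0.79 ± 0.10, each past the threshold. Against the 23.0% and 22.5% of all genes that rose and fell with PDGFRa and the 9.18% and 8.29% with citrine, 3 of 12 receptors rose and 5 fell with PDGFRa, and 1 of 10 rose and 5 fell with citrine, where Nrp1 (by 0.88 ± 0.08) and Nrp2 (by 1.45 ± 0.31) fell and Fgfr3 rose. Of the other ligands, 9 of 22 rose and 8 fell with PDGFRa and 10 of 20 rose and 5 fell with citrine. Pgf, placental growth factor, had 6.83 and 8.70 CPM in activated-like and 51.1 and 71.6 CPM in other cells of PDGFRa hearts (fell by 2.92 ± 0.09), Fgf16 fell by 2.54 ± 0.38, and Nrg1, at 16.9 and 16.4 CPM against 2.22 and 3.75 CPM, rose by 2.49 ± 0.17. In citrine hearts Fgf1 rose by 2.85 ± 0.50, Fgf9 by 2.80 ± 0.77 and Angpt4 by 2.36 ± 0.58. Of the extracellular partners, 6 of 16 rose and 6 fell with PDGFRa and 5 of 14 rose and 3 fell with citrine, with Gpc1 (glypican-1) up by 1.66 ± 0.14 and 2.29 ± 0.17, Ccbe1 down by 1.52 ± 0.16 and 1.91 ± 0.24, Spint2 up with PDGFRa and Plau down with citrine. Of the hypoxia-induced genes, 4 of 17 rose and 4 fell with PDGFRa and 4 of 18 rose and 2 fell with citrine: Ndrg1 rose and Vldlr fell with both, Egln3 fell by 2.21 ± 0.29 with PDGFRa and P4ha1 by 0.60 ± 0.09 with citrine.

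Across 50 clusters of at least 50 cells from all 4 libraries, each member's level was set against those of 9307 genes. Pericyte-like and smooth-muscle-like clusters are among them, whereas the PDGFRa clusters are all fibroblast-like. The part of differences between cell classes in the correlations was not tested. The closest gene was Svep1, a matrix protein, for Angpt1 (Pearson r of log2(CPM + 1) 0.91), Sgcd for Vegfc (0.92), the fibulin Fbln1 for Gas6 (0.89), Lpl, lipoprotein lipase, for Adm (0.85), Zfp423 for Fgf2 (0.83), Cdh2 for Hgf (0.77), Pcdh9 for Fgf7 (0.86) and Galm for Fgf10 (0.73). The second closest genes were Thsd7a, Fbln1, Tm7sf3, Tnik, Fez1, Ednra, Osr1 and Pigz, in the same order of members. For Adm and Lpl the correlation was 0.96 within the PDGFRa library, 0.76 within citrine, 0.86 within ligated and 0.87 within undamaged tdTomato clusters. For Vegfa (Ybx1 0.93, Rps29 0.92) and Vegfb (Nenf 0.96, Glrx5 0.95) the likeness was weaker within libraries. Among ligated tdTomato clusters it was 0.08 for Nenf and −0.23 for Glrx5. For Rps29 it was 0.04 among PDGFRa clusters and 0.83 among undamaged tdTomato clusters, the highest of these values within a library. Within the PDGFRa library it was also lower for Vegfc (0.42 with Sgcd, 0.16 with Fbln1), Gas6 (0.27 with Tm7sf3) and Fgf7 (0.47 with Pcdh9). Clusters of a library share its depth and chemistry, so these are descriptions. Adm ranged from 5.13 to 212 CPM over the 14 PDGFRa clusters, from 10.2 to 155 CPM over the 12 citrine clusters, and from 11.6 to 168 CPM and 11.2 to 497 CPM over the 8 ligated and 10 undamaged tdTomato clusters of fibroblast-like cells.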

How the data were processed

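UMI count matrices of 4 libraries were used as the authors deposited them: whole-number counts per gene and cell barcode, made with Cell Ranger count on a modified mm10 reference from Chromium single cell 3′ kit v2 libraries, per the labels' protocols. Per the file headers, the citrine and PDGFRa matrices were written by Cell Ranger 3.0.2, and the submitters' processing notes also name Seurat 2.1. Whether counting used strand, and which annotation it used, is not given in the sources used here. Barcodes with fewer than 500 genes or 1000 UMIs, or with mitochondrial UMIs over 10%, were removed. No doublet caller was run. Tests by heart kept cells whose top hashtag had at least 10 UMIs and at least 80% of hashtag UMIs, which removes doublets between hearts only.

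Cells were clustered per library (scanpy 1.11.5, 2000 variable genes, 30 components, 20 neighbours, leidenalg 0.10.2 at resolution 1) without the 10 members and 81 genes of 4 pathway lists, and clusters were named from 11 marker lists. The names are rebuilt and can differ from the study's. UMIs were summed per library and class and given as CPM. Ratios between libraries used genes with at least 20 UMIs and a pseudocount of 1 UMI, scaled to the class total for contrasts between classes, with no test. Sums per heart and class of at least 10 cells were tested with edgeR 4.0.16 (quasi-likelihood test, heart as block, Benjamini-Hochberg adjustment over all genes tested, threshold 0.05) in R 4.3.3, and the edgeR and interval steps were tested on simulated data. A hashtag is a heart, so the block pairs classes of the same heart; deviations of same-numbered sums correlated at 0.02 to 0.08 in the citrine pericyte-like test and at 0.09 to 0.27 in the others. P-values come from hearts of 1 library each. The edgeR test shares the estimate of spread over genes, so they do not measure a gene's own spread between hearts alone. This holds most for the PDGFRa activated-like test, which has the fewest hearts.

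All 10 members are named, with up to 4 genes of each pathway list in the tdTomato comparison of fibroblast-like cells and up to 3 in each test by heart, taken by size of change among those past the threshold. A gene so named with one reporter is given with the other too where its value bears on the same comparison, and Kdr is named in the citrine pericyte-like test by heart for its levels. The members and lists were chosen with earlier results of these data known. Alternatives covered gene filters, scaling, pseudocount, mitochondrial limit, class rule, cluster resolution, hashtag limit, DESeq2 1.42.0, the heart block and each heart left out.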

Additional observations from a re-analysis of the deposited data

Results flagged for a closer look

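Vegfb stood at 42.0 CPM in the other fibroblast-like cells (those not Sca1-high-like) of PDGFRa heart 2, against 45.1 to 45.2 CPM in the other 3 hearts. This was 1 of 30 groups of 4 hearts checked, and chance flags about 1 in 20 such groups.

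Between the reporters, 2 members had opposite directions in activated-like against other fibroblast-like cells, in every heart of each library, and the difference was not tested. Gas6 had a log2 change of −0.34 in the 2 PDGFRa hearts and 0.38 in the 3 citrine hearts. Vegfc had 0.18 in PDGFRa and −0.35 in citrine hearts, neither past the threshold. At Leiden resolution 0.5 Gas6 was 0.79 in PDGFRa hearts, so the opposite directions did not hold there. The activated-like clusters of these libraries are led by different genes, and only the citrine cluster also passed the naming rule of the Wif1 list.

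A pair of small classes outside the comparisons held high levels of a member. Adm stood at 390 CPM (10 UMIs) in 13 endothelial-like cells from undamaged tdTomato hearts, and Gas6 at 1136 CPM in 8 epicardial-like cells of the citrine library.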

How the results depend on the processing

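Of 739 alternative values for single members, 50 lost and 17 gained a call and 28 changed sign. Of these 28, 24 were of members whose value had missed the threshold or had an interval including 1, such as Fgf7 and Fgf10 between the tdTomato libraries, Fgf10 in PDGFRa Sca1-high-like cells (−0.06 at Leiden resolution 0.5), and Fgf7 (−0.52 at that resolution) and Hgf (−0.29 without heart 3) in citrine activated-like cells. The other 4 were Vegfc between PDGFRa and citrine cells without the activated-like clusters (−0.0052), and, at Leiden resolution 0.5, Fgf10 in citrine Sca1-high-like cells (0.086) and Vegfb (0.25) and Gas6 (0.79) in PDGFRa activated-like cells. The cause of these was not tested. For the libraries compared without a test, genes past 2-fold numbered 372 with at least 100 UMIs and 3034 with no filter in tdTomato fibroblast-like cells, 261 and 4376 in pericyte-like, 106 and 2736 in smooth-muscle-like, and 1453 and 5009 between PDGFRa and citrine cells, since these settings change which genes enter. Members past 2-fold in pericyte-like cells were 2 with no filter, 1 with each cell classed by its markers and 1 at resolution 0.5, and in smooth-muscle-like cells 0 with at least 100 UMIs, 3 with no filter and 0 with cells classed by markers. Smooth-muscle-like cells gave no value at the 5% mitochondrial limit or at resolution 0.5. A pseudocount in proportion to the class total was chosen after seeing the data.

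DESeq2 called 586 genes and 0 members in the citrine pericyte-like test, 1523 genes in citrine Sca1-high-like, 1039 genes and 3 members in citrine activated-like and 2389 genes in PDGFRa activated-like cells. Without the replicate block, 1813 genes were called in citrine pericyte-like, 738 genes and 4 members in PDGFRa Sca1-high-like, and 3 members in citrine activated-like cells; it also ended the call of Fgf7 in PDGFRa activated-like cells (−0.87), and no other count moved by over 1.5 times. The 5% mitochondrial limit left 424 genes and 1 member in the citrine pericyte-like test. Leaving out each heart in turn gave 2 to 874 genes and 0 to 3 members in citrine pericyte-like, 1826 to 2797 genes and 7 to 8 members in citrine Sca1-high-like, 737 to 1589 genes and 5 to 6 members in PDGFRa Sca1-high-like, and 1336 to 1963 genes and 3 to 5 members in citrine activated-like cells. No heart could be left out of the PDGFRa activated-like test, which has 2 hearts. Depth limits Hgf, Vegfb, Fgf10 and Vegfa most, with 27 to 85 UMIs in the undamaged tdTomato fibroblast-like cells.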

Other observations

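The labels do not tell the condition of each PDGFRa hashtag. In fibroblast-like cells of hearts 1 to 4, Postn stood at 3626, 3854, 202 and 284 CPM, against 191 to 307 CPM in the undamaged citrine hearts. In the same hearts Hgf had 14.7, 13.8, 2.10 and 0.907 CPM, Adm 49.7, 51.9, 156 and 95.9 CPM, and Fgf10 0.974, 1.07, 3.94 and 5.44 CPM. Angpt1, Gas6 and Fgf2 also separated hearts 1 and 2 from hearts 3 and 4. Vegfa, Vegfb, Vegfc and Fgf7 did not: Vegfa had 56.1, 43.8, 48.1 and 43.0 CPM and Vegfb 45.4, 41.8, 43.3 and 46.5 CPM. Median depth was 10909, 10742.5, 6438 and 6787 UMIs in hearts 1 to 4, and its part in these levels was not tested.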
